A study of Apis mellifera with 9 samples.

Results

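DNA replication is the copying of the genome before a cell divides. The origin recognition complex marks start sites, the MCM ring is loaded there as the helicase, GINS helps to switch the helicase on, and primase with DNA polymerase alpha lays down the first short stretch of each new strand. Polymerases delta and epsilon then extend the strands, held on by the PCNA clamp that replication factor C loads, while replication protein A coats single strands, ribonucleotide reductase supplies deoxynucleotides, ligases join fragments and topoisomerases release the twist. In a worker bee's ovary, which stays small in a colony with a queen, DNA is copied in dividing germ cells and in the follicle and nurse cells of many insect ovaries.

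The genes were taken by name from the RNA-seq table of honey bee (Apis mellifera) worker ovaries. A protein-coding feature was a member if either of its database descriptions named a DNA replication licensing factor, DNA polymerase, DNA primase, replication factor C, replication protein A, proliferating cell nuclear antigen, origin recognition complex, GINS, ribonucleoside-diphosphate reductase, DNA ligase or DNA topoisomerase. This gave 64 of 10271 protein-coding features. For 53 of them the KEGG or Pfam annotation in the same table was that of the named protein, and these carry the account below. POLG2 (LOC100576960) was named DNA polymerase gamma 2 in both descriptions but carried the KEGG entry of gatC, an amidotransferase subunit. The other 10 were found by name alone, among them 7 called DNA ligase 1-like in at least 1 description and 2 called origin recognition complex subunit 1-like. Genes are called here by the short symbols of their human or fruit fly counterparts.

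The study catalogued RNAs of the worker ovary and had 1 group with no treatment or contrast. Each of its 3 pools held 40 ovary pairs from workers of 1 colony out of 5 kept with sister queens, collected 4 days after emergence and marking, after the brood had emerged at 34 °C and 80% relative humidity. Each pool gave 1 RNA-seq library from rRNA-depleted RNA, 1 circRNA library treated with RNase R and 1 small RNA library, and the small RNA libraries are not used here. Levels are FPKM, fragments scaled to exonic length and to library size. This scaling is meant to let genes of different length be set side by side. Differences between pools still varied with length, as given below, so ratios of genes of unlike length carry that limit. Values of 3 pools are given in the order of pools 1, 2 and 3, and errors are SD over the pools (n = 3). With 1 library per pool and 1 group, no test between conditions was possible, and spreads between pools are descriptions.

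The RNA-seq libraries held 31930244, 27684048 and 26602582 fragments by the totals recovered from the values, and the 64 genes took 63146, 56973 and 58125 of them, or 0.198%, 0.206% and 0.218%. Germ line markers were present, with vasa at 18.1, 25.4 and 26.6 FPKM and nanos at 8.63, 8.67 and 10.4 FPKM. Markers of other tissues were present too. Muscle genes (3) summed to 932, 545 and 468 FPKM, cuticle and tracheal genes (3) to 1608, 646 and 499 FPKM, fat body genes (3) to 482, 526 and 396 FPKM, and gut genes (9) to 183, 57.8 and 67.4 FPKM. Neuron genes (2) summed to 40.7, 39.7 and 33.3 FPKM and melittin, a venom gland gene, had 26.2, 59.7 and 38.4 FPKM. Of the gut genes, LOC724565 (a trypsin-7) was listed at 0 in pool 2 and LOC409626 (a trypsin-1) at 0 in pool 3. The 4 germ line genes summed to 155, 171 and 184 FPKM. Pool 1 had the highest sums of muscle, cuticle and gut genes and the lowest germ line sum, but single markers went other ways. The cuticle gene Cpap3-d had 253, 587 and 398 FPKM, the gut aminopeptidase LOC409077 had 3.33, 6.75 and 14.6 FPKM, and the germ line gene LOC100576747 stayed between 67.3 and 68.6 FPKM. The share of these tissues in the levels below was not tested, and fewer cells of a type cannot be told apart from less RNA per cell in such pools.

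All 53 annotated genes were detected at 1 FPKM or more in every pool. Of all 64 genes, 60 were, against a background of 80% of protein-coding features. Their levels sat in a narrow band in the middle of the transcriptome. The annotated genes ran from 3.36 to 63.6 FPKM in their 3-pool means, with a median of 12.9 and quartiles of 7.30 and 20.2 FPKM. All protein-coding features had a median of 14.99 and quartiles of 2.79 and 35.7 FPKM. A mean of 50 FPKM or more was reached by 1 of the 64 genes, and by 1690 features (16.5%) of all protein-coding ones.

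In each pool the median level of the 64 genes, as log2(FPKM + 1), was lower than that of all protein-coding features. The genes' median was 3.75, 3.53 and 3.80, and that of all features was 3.98, 3.89 and 4.02. The difference was −0.23, −0.35 and −0.23 (−0.27 ± 0.07, SD, n = 3). With the 53 annotated genes alone it was −0.22, −0.20 and −0.04 (−0.15 ± 0.10, SD, n = 3), and for the 27 genes whose names hold none of the words binding protein, interacting, like, probable or mitochondrial it was −0.03 ± 0.05 (SD, n = 3). The size of the difference thus depends on which names are taken in.

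**Figure D1:**
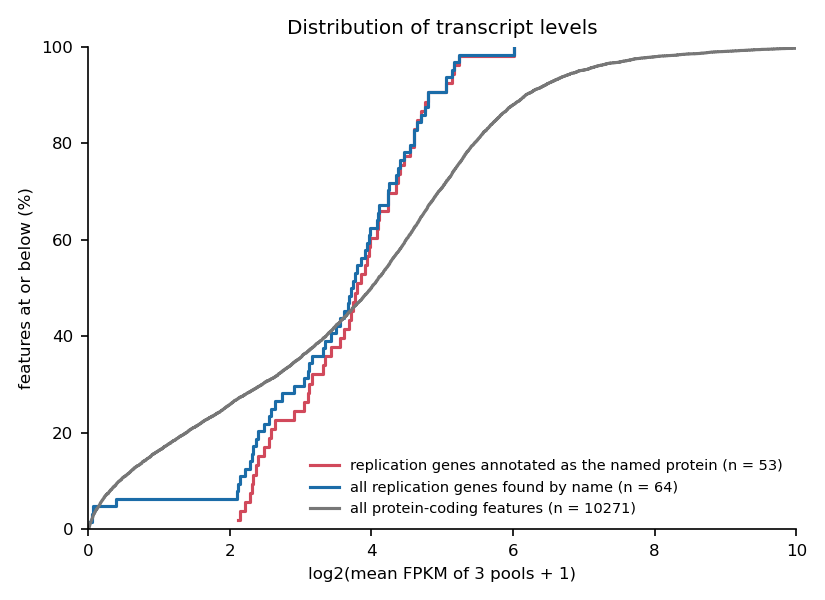
Cumulative share of features (%) against log2(mean FPKM of 3 pools + 1) for the 53 annotated replication genes, all 64 replication genes and all 10271 protein-coding features. The replication curves are steeper, with quartiles of 7.30 and 20.2 FPKM for the annotated genes against 2.79 and 35.7 FPKM for all features.

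The origin recognition complex, which binds start sites and helps to load the helicase, was measured through 4 subunits. ORC3 (LOC100577998, LG9:3615031-3621903, + strand) was the highest at 14.8, 18.8 and 19.8 FPKM. ORC1 (LOC408512, LG15:8018119-8021296, − strand), an ATPase subunit, was the lowest in its mean at 3.56, 5.15 and 5.89 FPKM. Every ORC3 value was above every ORC1 value, and the ratio of ORC3 to ORC1 was 3.72 ± 0.41 (SD, n = 3). ORC4 averaged 6.52 ± 0.60 FPKM and ORC2 averaged 5.02 ± 0.62 FPKM, and ORC2 and ORC1 overlapped in their ranges. ORC3 lies inside the span of LOC411344 on the opposite strand. How the authors' counting treated strand is not known here, so its fragments may be shared with that gene.

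The 6 subunits of the MCM ring, which form the core of the replicative helicase in equal numbers in other eukaryotes, differed in transcript level by a fixed order. MCM5 (LOC551903, LG5:11750584-11753795, + strand) had 25.8, 28.4 and 26.3 FPKM. MCM7 (LOC409979, LG5:13377261-13381019, − strand) had 3.36, 4.60 and 5.77 FPKM. The order MCM5, MCM4, MCM3, MCM6, MCM2 and MCM7 held in all 3 pools with no overlap between neighbours. MCM4 averaged 19.7 ± 2.44, MCM3 14.9 ± 1.25, MCM6 10.7 ± 1.52 and MCM2 7.59 ± 0.10 FPKM (SD, n = 3).

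The ratio of MCM5 to MCM7 was 7.67, 6.17 and 4.55 in the 3 pools (6.13 ± 1.56, SD, n = 3). MCM7 was the subunit that moved most between pools, 1.72-fold from its lowest to its highest pool with a 95% counting interval of 1.46 to 2.02. It rested on 262, 311 and 375 fragments. MCM2 was the steadiest, with 7.57, 7.51 and 7.71 FPKM. MCM5 overlaps LOC551927 on the opposite strand, and MCM7 overlaps no other listed feature.

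MCM8, a relative of the ring subunits that acts in repair by recombination in other animals, was at 3.18, 3.91 and 3.19 FPKM from a model of 730 bases. TopBP1 (LOC410940), a scaffold that helps to activate the helicase in vertebrates and was found here by the word topoisomerase in its name, was higher than MCM8 in every pool, at 8.46, 10.8 and 10.1 FPKM.

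**Figure D2:**
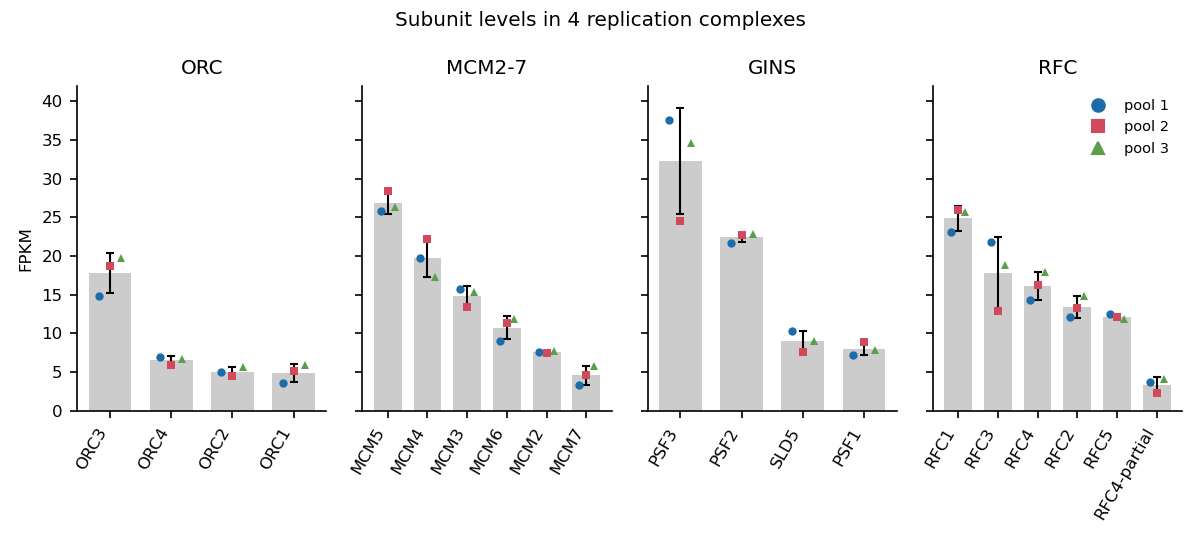
FPKM of each subunit of the origin recognition complex, the MCM ring, GINS and replication factor C. Bars are means of 3 pools, error bars are SD and points are the pools. MCM5 stands at 26.8 FPKM and MCM7 at 4.58 FPKM, with the other ring subunits in steps between them.

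GINS joins the MCM ring and CDC45 at the active fork and has 4 subunits. PSF3 (LOC107965817, on an unplaced scaffold) had 37.6, 24.6 and 34.7 FPKM from a model of only 269 bases. PSF1 (LOC412072, LG4:10106798-10107685, − strand) had 7.24, 8.81 and 7.90 FPKM. PSF2 averaged 22.4 ± 0.63 and SLD5 8.95 ± 1.31 FPKM (SD, n = 3). PSF3 and PSF2 stood above SLD5 and PSF1 in every pool, while SLD5 and PSF1 overlapped.

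The primase and polymerase alpha complex makes the RNA and DNA primer. PRIM1 (LOC726227, LG14:6920620-6922389, + strand), the catalytic primase, had 12.4, 13.5 and 18.1 FPKM. PRIM2 (LOC551739, LG13:2723369-2725948, − strand), its large partner subunit, had 3.91, 3.63 and 4.08 FPKM. PRIM1 was 3.78 ± 0.64 times PRIM2 (SD, n = 3), although the subunits act as a pair.

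A second gene for the primase large subunit, PRIM2-like (LOC100578483), was at 5.18, 3.07 and 4.30 FPKM and overlapped PRIM2 in range. The summed level of a large subunit cannot be read from either gene alone. POLA2, the accessory B subunit, averaged 14.4 ± 2.05 FPKM, and POLA1, the catalytic subunit, 7.30 ± 0.41 FPKM (SD, n = 3). POLA2 was above POLA1 in every pool. The miRNA gene Mir279a lies inside POLA2 on the same strand.

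Polymerase delta, which copies the lagging strand in yeast and mammals, was more even. The gene POLD2a (LOC727251, LG7:11216652-11218710, + strand) had 22.9, 23.6 and 23.6 FPKM. POLD3 (LOC100578479, LG1:14576817-14578372, + strand), an accessory subunit that contacts PCNA in mammals, had 13.2, 9.88 and 15.05 FPKM. The ratio between these outer members was 1.90 ± 0.43 (SD, n = 3). Both POLD2a and POLD2b (LOC725330) are annotated as the small subunit, and POLD2b averaged 19.4 ± 1.74 FPKM. The catalytic subunit POLD1 averaged 16.3 ± 1.29 FPKM. POLD1 was 2.26, 2.17 and 2.27 times POLA1, a ratio with little spread between pools (2.23 ± 0.05, SD, n = 3).

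Polymerase epsilon, which copies the leading strand in yeast, held the largest fold differences between pools among the complexes. POLE4 (LOC725835, LG5:12314990-12316375, + strand), a small histone-fold subunit, had 19.5, 8.47 and 19.6 FPKM. POLE2 (LOC724891, LG5:2597910-2600557, − strand), the B subunit, had 3.35, 4.59 and 7.70 FPKM. The 2 genes did not move alike, since POLE4 was low in pool 2 alone and POLE2 was lowest in pool 1. POLE3, the histone-fold partner of POLE4, averaged 11.2 ± 2.05 FPKM, and the catalytic POLE1 7.70 ± 0.47 FPKM (SD, n = 3). POLE1 had an exonic model of 6981 bases and stayed between 7.24 and 8.17 FPKM. POLD1 was 2.12 ± 0.22 times POLE1 (SD, n = 3).

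PCNA (LOC727275, on an unplaced scaffold), the sliding clamp that tethers polymerases and other fork enzymes, had 21.4, 19.2 and 20.1 FPKM. Its mean of 20.2 ± 1.11 FPKM (SD, n = 3) equalled the median of the 8601 protein-coding features with a mean of 1 FPKM or more, 20.2 FPKM. Replication factor C, its loader, is an assembly of 1 large and several small subunits. RFC1 (LOC413807, LG5:13445950-13451524, + strand), the large subunit, had 23.1, 26.0 and 25.6 FPKM. RFC1 was above each of the small subunits in every pool.

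RFC3 averaged 17.8 ± 4.57, RFC4 16.1 ± 1.803, RFC2 13.4 ± 1.404 and RFC5 12.2 ± 0.36 FPKM (SD, n = 3). Each of these overlapped its neighbour in the order. A second feature named as a partial subunit 4, LOC100577095, had 3.74, 2.30 and 4.03 FPKM and was the lowest of the 53 annotated genes. Reads of this partial copy and of RFC4 may be divided between the pair, and RFC4 also overlaps LOC408311 on its own strand.

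Replication protein A showed a wide gap between partners. RPA70 (LOC725934, LG5:11798039-11801434, − strand), the large subunit that binds single-stranded DNA, had 66.5, 62.3 and 62.0 FPKM and was the highest of the 64 genes. RPA32 (LOC725418, LG1:4599816-4600922, + strand), the middle subunit, had 16.02, 7.66 and 12.1 FPKM. RPA70 was 4.15, 8.14 and 5.14 times RPA32. In FPKM, RPA70 varied by 1.07-fold over the pools (95% counting interval 1.03 to 1.12) and RPA32 by 2.09-fold. Which partner moved depends on the scaling chosen. RPA32 differed 1.07-fold when the pools were rescaled to a common sum but 2.01-fold when they were scaled by size factors, both as given below.

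Ribonucleotide reductase turns ribonucleotides into deoxynucleotides. Its large subunit RnrL (LOC725673, LG6:6966907-6970572, + strand) had 25.04, 23.4 and 23.3 FPKM. The small subunit RnrS (LOC414008, LG15:2292064-2295711, − strand) had 13.99, 10.4 and 14.2 FPKM. RnrL was above RnrS in every pool, by 1.89 ± 0.32 times (SD, n = 3).

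The ligases differed in level. LIG1 (LOC408752, LG3:5788707-5793300, + strand), which joins Okazaki fragments, had 27.0, 22.9 and 28.1 FPKM. LIG4 (LOC726551, LG5:4966462-4974403, + strand), the ligase of non-homologous end joining, had 3.66, 4.198 and 4.02 FPKM. LIG1 was 6.61 ± 1.004 times LIG4 (SD, n = 3), and LIG3, a repair and mitochondrial ligase in vertebrates, lay between them at 14.02 ± 1.42 FPKM.

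Topoisomerases change the winding of DNA, and they formed a higher and a lower pair by level. TOP1 (LOC412750, LG11:10441443-10448906, + strand), which relaxes DNA by nicking a single strand, had 30.5, 39.2 and 40.5 FPKM. TOP3B (LOC552787, LG5:14174449-14178394, − strand) had 12.7, 11.9 and 12.5 FPKM. TOP2, which cuts both strands and separates sister molecules, averaged 34.2 ± 3.47 FPKM and TOP3A 20.9 ± 2.16 FPKM (SD, n = 3). TOP1 and TOP2 overlapped in range, and both were above TOP3A and TOP3B in every pool.

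The polymerases of repair and damage bypass ran from 3.64 to 34.9 FPKM in their means, beside 3.87 to 23.4 FPKM for the subunits of the 3 fork polymerases. POLB (LOC724170, LG5:13019829-13021823, − strand), the base excision repair polymerase, had 29.2, 33.8 and 41.5 FPKM. POLQ (LOC724423, LG16:6759037-6767320, + strand), which acts in end joining, had 3.66, 3.53 and 3.74 FPKM. The bypass polymerases POLI and POLH averaged 23.3 ± 2.09 and 9.16 ± 1.02 FPKM, and REV3, the catalytic subunit of polymerase zeta, 4.28 ± 0.54 FPKM (SD, n = 3). POLB and POLI were each above the catalytic subunits POLA1, POLD1 and POLE1 in every pool.

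The mitochondrial polymerase is named by 2 features. The catalytic POLG1 (LOC411763) had 4.58, 2.89 and 4.64 FPKM. POLG2, with the conflicting annotation given above, had 29.1, 35.0 and 32.5 FPKM and was highest in pool 2, where POLG1 was lowest.

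**Figure D3:**
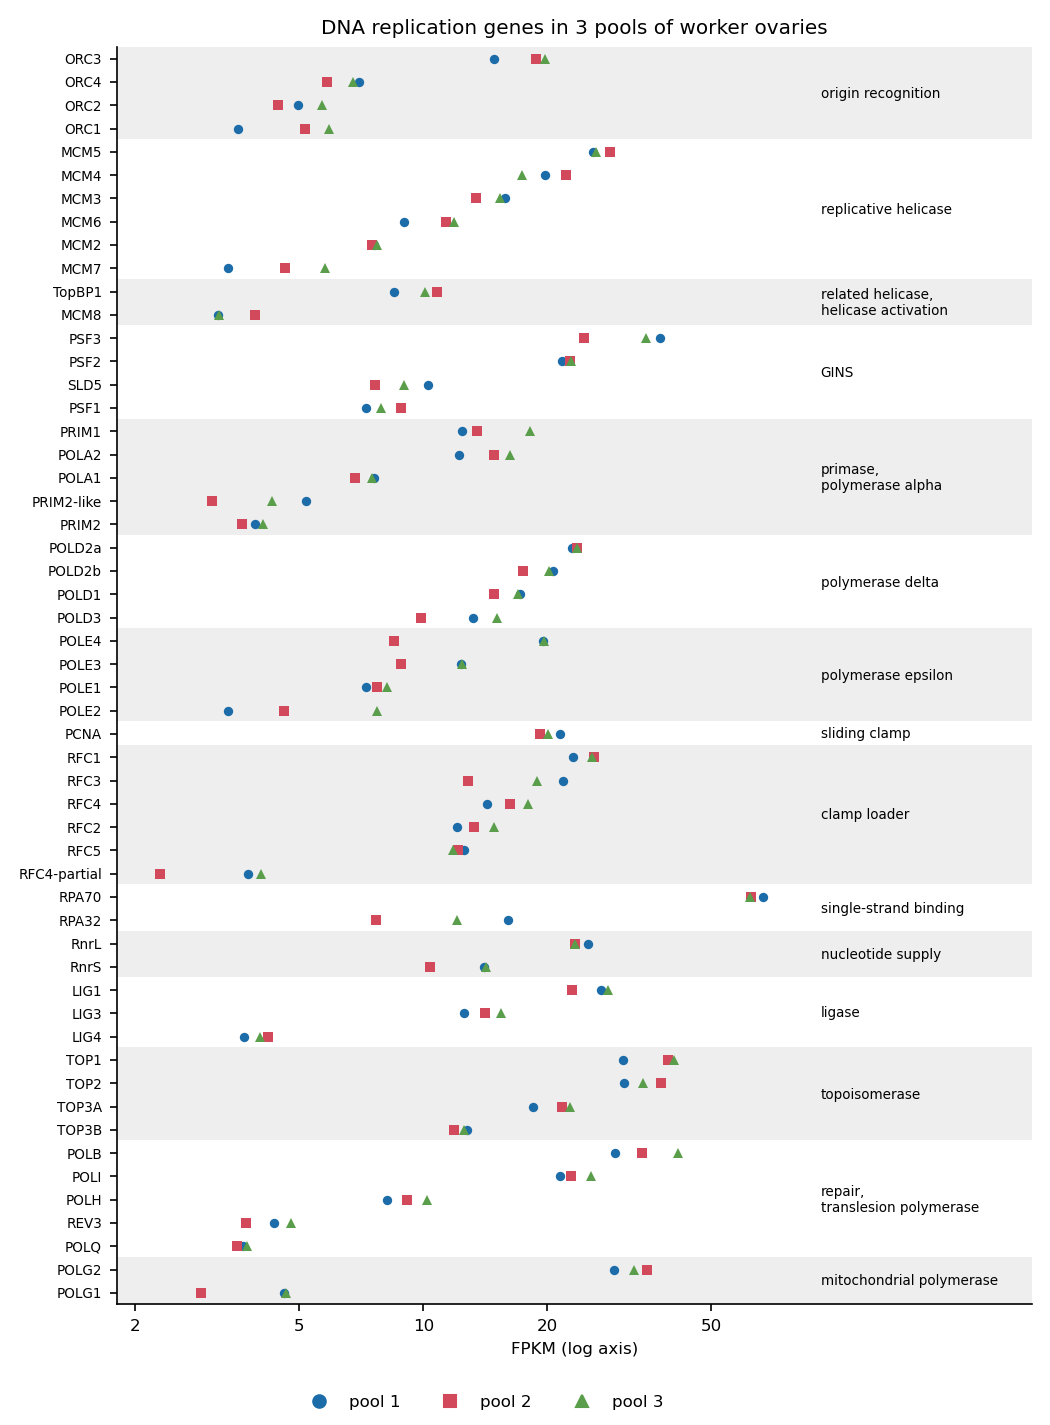
FPKM on a log axis of the 53 annotated genes and POLG2 in pools 1, 2 and 3, grouped by role and ordered by mean within a role. RPA70, at 62.0 to 66.5 FPKM, is the highest, and the MCM subunits form a descending series.

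The 10 features found by name alone behaved less evenly. LOC726697, named DNA ligase 1-like in 1 description and uncharacterised in the other, was the highest at 27.7, 27.1 and 25.8 FPKM. Dpit47, named in fruit flies as a protein that interacts with DNA polymerase, had 20.1, 14.5 and 19.5 FPKM. LOC102656433 and LOC410477 averaged 10.3 ± 0.51 and 5.64 ± 1.04 FPKM, and LOC410477 is called a dynein chain in its other description. The 4 genes below a mean of 1 FPKM were all of this kind.

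LOC102653780, a ligase 1-like name, had 0.469, 0.146 and 0.335 FPKM. LOC100576253, of the same name, had 0.0408, 0.0942 and 0.0163 FPKM, from 3, 6 and 1 fragments. LOC100577840, named as a subunit 1 of the origin recognition complex, had 0.101, 0 and 0.0302 FPKM from 4, 0 and 1 fragments. LOC102653947 had fragments in pool 3 alone, at 0.0736 FPKM. LOC102653780 rested on 37, 10 and 22 fragments and differed 3.21-fold between its outer pools (95% counting interval 1.56 to 7.23), and for the other 3 the counts were too few for a difference between pools to be detectable.

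In FPKM most of the genes, like most protein-coding features, stayed within 2-fold between pools. Of the 60 with a mean of 1 FPKM or more, 5 differed 2-fold or more between their highest and lowest pool, which is 8.33% against a background of 14.1% of such protein-coding features. Among the annotated genes it was 3 of 53, and among the 49 genes with a mean of 5 FPKM or more it was 4, against a background of 10.2%. The median coefficient of variation over pools was 11.2% for the 60 genes and 15.2% for all 8601 features, and 13.9% for the 6263 features within the level range of the annotated genes.

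RPA32, POLE4 and POLE2 were the annotated genes past 2-fold. RPA32 varied 2.09-fold, with a 95% interval of 1.67 to 2.64 for counting error alone, and rested on at least 263, 109 and 165 fragments. POLE4 varied 2.32-fold (interval 1.87 to 2.87) on at least 342, 129 and 287 fragments. POLE2 varied 2.30-fold (interval 1.61 to 3.33) on at least 48, 57 and 92 fragments, and it overlaps LOC413929 on the opposite strand. The intervals of these 3 genes use the fewest possible fragments, so they may be too wide. RPA32 and POLE4 were lowest in pool 2, and POLE2 in pool 1. With LOC100577966, 3 of the 60 genes were thus 2-fold apart with their lowest value in pool 2, against a background of 8.39%. The remaining pair carried the ligase 1-like and subunit 1-like names. LOC100578048 had 1.26, 3.64 and 4.99 FPKM (3.96-fold, interval 3.04 to 5.21), and LOC100577966 had 15.2, 6.58 and 13.3 FPKM (2.31-fold, interval 1.76 to 3.06).

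Transcript length moved with these shifts. Of the 11 genes with a recovered exonic length under 1000 bases, 4 differed 2-fold or more, against a background of 32.1% of protein-coding features of that length. Their median log2 deviation in pool 2 from the mean of the pools was −0.33, and −0.26 for all 1563 features so short. From 2000 to under 3500 bases the medians were 0.01 for 21 genes and −0.02 for 2262 features. Across genes, Spearman's rho of length with the pool 2 deviation was 0.41 for the 60 genes and 0.41 for 8589 features, all of which share the same libraries and normalization. For those with only 1 possible length it was 0.34 for 46 genes and 0.44 for 4686 features. The length used is the shortest possible one, and MCM5, POLE2, RPA32 and POLE4 among the 11 have other possible lengths. By that shortest length RPA32, POLE4 and LOC100577966 fall among the short genes low in pool 2. Of these, LOC100577966 alone has only 1 possible length, so the place of RPA32 and POLE4 is not settled. The part of length in their values was not tested.

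**Figure D4:**
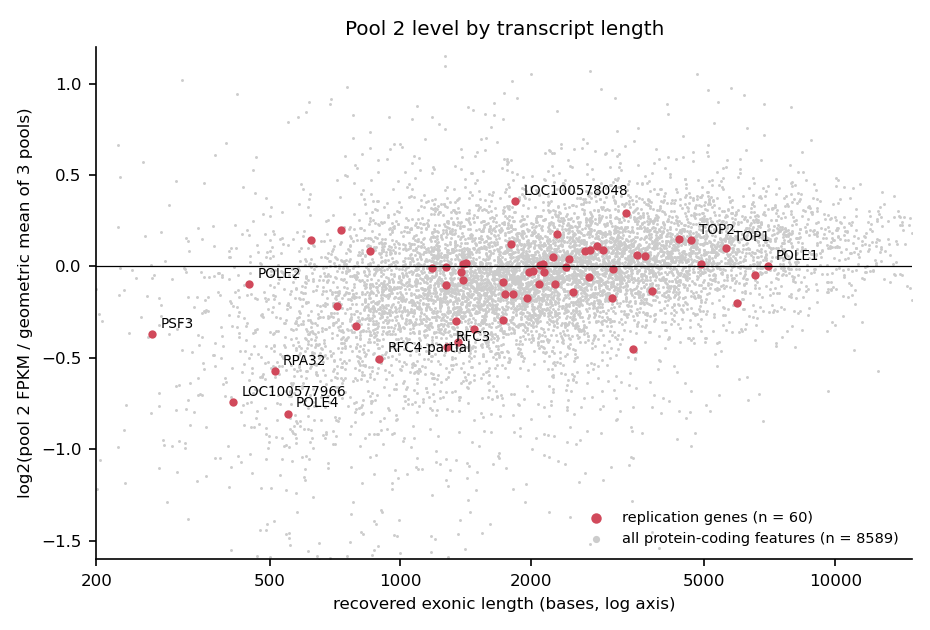
Log2 ratio of pool 2 FPKM to the geometric mean of the 3 pools against recovered exonic length (bases, log axis), for 60 replication genes (red) and 8589 protein-coding features (grey), of which 149 lie outside the axes. The length shown is the shortest possible one. By this length, short genes of both kinds sit low in pool 2, with medians of −0.33 and −0.26 under 1000 bases.

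The median shifts of the genes between pools were small and close to those of all features. Their median log2 deviations from the mean of the pools were −0.00, −0.03 and 0.08, and those of all features were 0.00, −0.04 and 0.05. Pool 3 was the highest pool for 32 of the 60 genes, against a background of 32.8% of features, and the lowest pool for 6, against a background of 16.5%. Pool 1 was highest for 18 of the 60 genes (background 38.3%) and lowest for 27 (background 39.8%). Pool 2 was highest for 10 (background 28.9%) and lowest for 27 (background 43.7%). The medians of the genes and of all features lay within 0.04 of each other in every pool, so these counts rest on small steps. In an order looked at after the values were seen, 19 of the 60 genes were lowest in pool 1 and highest in pool 3 (31.7%, against a background of 17.3%), among them ORC1, MCM6, MCM7, PRIM1, POLA2, POLE2, POLB and TOP1. The germ line sum had the same order, as did vasa, nanos and exuperantia among its 4 genes. The part of tissue makeup in this was not tested, and the order depends on the scaling, as given next.

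Rescaling the pools to a common sum changes the order of the pools for single genes. A 92-base miRNA feature held 67.0%, 43.9% and 59.7% of the summed FPKM, so a conversion to TPM moved the median log2 level of all protein-coding features by −0.43, 0.48 and −0.05 in pools 1 to 3. After that conversion RPA32 differed 1.07-fold and POLE4 1.56-fold between pools, while POLE2 differed 3.04-fold. Of the 60 genes, 29 were then 2-fold or more apart, as were 48.7% of all features, and 4 of the 60 were lowest in pool 1 and highest in pool 3, against 6.02% of all features. Size factors, the median ratio of a pool's protein-coding features to their geometric mean over pools, were near 1, at 1.01, 0.967 and 1.03. With them RPA32 differed 2.01-fold, POLE4 2.21-fold and POLE2 2.25-fold. Under this scaling 5 of the 60 genes were 2-fold or more apart, against 13.6% of all features. The order of subunits within a pool does not change with either scaling.

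Circular RNAs from these genes were rare. The circRNA table gives 11794 back-splice junctions in SRPBM, a signal the authors computed from back-spliced reads relative to all mapped ones. Of the 64 genes, 2 were source genes, against a background of 20.7% of protein-coding features. Gene span moved with this: 62 of the 64 genes spanned less than 10000 bases, where the background was 6.69%, and at 10000 bases or more it was 65.1%. Both source genes, LIG3 and LOC726697, were the 2 with the longer span.

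LIG3 gave the steadiest circle, LG11:14198816-14199975 on the + strand, at 1759, 1773 and 1765 SRPBM (1766 ± 7.14, SD, n = 3). It ranked 1269, 1411 and 1242 of the junctions of each library. The other LIG3 circles were listed in pool 2 alone, at 96.5 and 217 SRPBM. The circle of LOC726697, LG14:7364624-7378986 on the − strand, had 1640, 434 and 1765 SRPBM and was low in pool 2. On the opposite strand inside the LIG3 span lies a far stronger circle, assigned to the uncharacterised LOC725540, at 32844, 40163 and 36108 SRPBM, and it ranked 57, 57 and 52. PSF2 likewise spans a circle of its opposite-strand neighbour LOC408754 at 2600, 1930 and 1368 SRPBM, and no circle of its own was listed.

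The genes were spread over the linkage groups. LG5 carried 11 of the 64 (17.2%) against 6.86% of protein-coding features, and LG14 carried 8 (12.5%) against 4.98%. Those on LG5 were all annotated genes. On LG14 only ORC4, PRIM1, RFC3 and TOP3A were, while LOC100577840, LOC102653947, LOC410477 and LOC726697 were found by name alone. On LG5, MCM5 and RPA70 lay 44243 bases apart with 8 protein-coding features between them, and MCM7 and RFC1 lay 64930 bases apart with 13 between. MCM5 and RPA70 were the highest of their complexes in every pool, and MCM7 was the lowest of its own.

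The Pfam and gene ontology entries of the genes were not used by the naming rule. They are no separate check of the list, since the 53 annotated genes were kept for their KEGG or Pfam entries. The Pfam MCM domain was the leading entry of 6 of the 64 genes and of 8 protein-coding features in all. The DNA polymerase B subunit domain led in POLA2, POLD2a, POLD2b and POLE2 and in no other feature. A histone-fold entry was shared by POLE3 and POLE4 and led in 7 protein-coding features in all. The gene ontology term for DNA replication was listed for 29 of the 64 genes (45.3%), against 72 of 10271 protein-coding features (0.701%).

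Other proteins of replication were taken from a list of 32 names, of which 26 were matched to 28 features. At 1 FPKM or more in all pools were 26 of the 28, against the background of 80%, and 0 of the 27 with a mean of 1 FPKM or more differed 2-fold between pools, against the background of 14.1%. Their median log2(FPKM + 1) was 3.67 ± 0.15 (SD, n = 3), beside 3.69 ± 0.14 for the 64 genes and 3.97 ± 0.07 for all protein-coding features.

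Of the genes listed for helicase loading and its control, geminin, the inhibitor of Cdt1, was the highest at 52.9, 35.7 and 41.9 FPKM. Cdt1 averaged 34.6 ± 3.07 FPKM, and Cdc6 was the lowest at 8.87, 8.70 and 10.4 FPKM. Geminin was above Cdc6 in every pool. The pair of helicase activators that bind the ring differed by more. Cdc45 had 16.8, 17.2 and 20.6 FPKM, while Mcm10 had 0.988, 1.34 and 1.57 FPKM, below each of the 6 ring subunits in every pool. Cdc7, the kinase that phosphorylates MCM subunits, had 14.2, 7.79 and 15.5 FPKM, 1.99-fold between its outer pools and lowest in pool 2. Of the features named RecQ4, LOC410301 averaged 6.89 ± 0.81 FPKM and LOC100576466 was listed with a single fragment, in pool 1.

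At the fork, tipin and timeless act as a pair but differed widely. Tipin had 41.8, 52.5 and 43.8 FPKM, and timeless had 2.75, 2.66 and 1.95 FPKM. Tipin was above timeless in every pool. Among the enzymes that process Okazaki fragments, RNaseH2B was the highest at 54.9, 42.1 and 48.8 FPKM. DNA2 was the lowest at 5.22, 5.87 and 8.15 FPKM, and FEN1, the flap nuclease, averaged 11.2 ± 0.67 FPKM.

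Of the chromatin assembly factors, the histone chaperone Asf1 had 66.2, 80.3 and 59.0 FPKM, and the CAF1_A subunit had 3.31, 3.21 and 3.07 FPKM. Rbbp4, a histone-binding subunit shared with other chromatin complexes, averaged 58.8 ± 4.17 FPKM. Asf1, DP1 and Rbbp4 were the highest of the list by mean, and RPA70 was the highest of the 64 genes.

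Thymidylate synthase (TYMS), which makes the thymidine nucleotide, had 17.9, 11.5 and 15.3 FPKM and was lowest in pool 2. Of the transcription factors that drive S phase genes, DP1 had 55.9, 73.5 and 66.3 FPKM, and the lower of the E2F genes, LOC412770, had 4.64, 4.36 and 5.36 FPKM. The clamp-loader variant subunit Ctf18 averaged 5.35 ± 0.16 FPKM, below RFC1 to RFC5 in every pool.

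Neighbouring genes limit the reading of some levels. Of the 64 genes, 21 overlap another listed feature, 17 on the opposite strand and 6 on their own. Among neighbours in the order of levels within the complexes, 18 of 28 pairs did not overlap in range and 10 did. ORC3, MCM5, PSF2 and RFC1, each high in its complex, overlap an opposite-strand feature, while RPA70, PSF3 and POLD2a do not overlap any. POLB, the highest repair polymerase, also overlaps an opposite-strand feature. Of the genes lowest in their role, PRIM2, LIG4 and POLG1 overlap a feature on their own strand. PSF1, POLE2 and again PRIM2 overlap one on the opposite strand. ORC1, MCM7, MCM8, POLD3, the partial RFC4 copy, RPA32, RnrS, TOP3B and POLQ overlap none.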

How the data were processed

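The authors deposited FPKM values per gene for the RNA-seq libraries and a normalised signal, SRPBM, per circRNA junction. Per the submitters' processing notes, Bowtie, Bowtie2 2.0.6, TopHat2 2.0.9 and HTSeq 0.6.1 were used, with no roles. Genome build, circRNA caller and strand rule are not given in the sources used here. Per the labels' protocols a directional kit was used after rRNA depletion.

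Members were found by pattern in the NR and NT descriptions, and "replication factor C" was read as a whole phrase, so that Cdt1 stayed out. Of the 64, 61 matched a RefSeq symbol. The members and lists were chosen with earlier results of these data known. Whole fragments and the shortest possible exonic length were recovered from the FPKM (13203 of 13204 features, tolerance 1e-05), so fragments are lower bounds for the 15 members with more than 1 possible length. Folds between pools carry exact conditional binomial (Clopper-Pearson) 95% intervals, which cover counting error only. They were computed from the recovered fragments, so they may be too wide for those 15 members. Fold counts use features with a mean FPKM of 1 or more. SRPBM depth is unknown.

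Named were the highest and lowest gene of each role, those 2-fold apart, those below a mean FPKM of 1 and circRNA hosts, except 1 gene of the list of other replication proteins that is not reported here. Python 3.11.15, pandas 2.3.3, numpy 2.4.6 and scipy 1.17.1 were used, and the recovery was tested on simulated data. The labels do not give which colony a pool came from.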

Additional observations from a re-analysis of the deposited data

How the results depend on the processing

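The median level of the 64 genes moved beyond its spread between pools under 1 alternative, 3.93 for the 27 genes whose names lack the words binding protein, interacting, like, probable or mitochondrial. Their median minus that of all protein-coding features was −0.27, and became −0.0348 for those 27 genes, −0.15 for the 44 genes named in both descriptions and −0.15 for the annotated genes, a list chosen after the data were seen. It was below 0 under every alternative run. The count of 5 genes that differed 2-fold became 13 at 1.5-fold (21.7%, against 33.6% of all features), 1 at 3-fold (1.67% against 5.57%), 9 with no minimum level (14.1% against 23.2%), 3 among the annotated genes (5.66% against 14.1%) and 29 as TPM (48.3% against 48.7%), an alternative added after the data were seen. With size factors it stayed at 5 (8.33% against 13.6%). The count was 2 without pool 1 (POLE4 and LOC100577966), 2 without pool 2 (POLE2 and LOC100578048) and 4 without pool 3. Genes that host circRNAs numbered 1 among the annotated ones and 2 otherwise. The genes' pool deviation minus that of all features, 0.0143 in pool 2 and 0.0379 in pool 3, was −0.0105 in pool 2 at an exonic length of 1500 or more (added after the data were seen), −0.0376 to 0.0140 in pool 2 and 0.00325 to 0.0376 in pool 3 when 1 other pool was left out. The cause of these changes was not tested. The count of 60 genes at 1 FPKM or more stayed within a factor of 1.5 under each alternative run. It was 46 at a minimum of 5 FPKM (71.9% against 65.2% of all features). The subunit ratios were rerun only with 1 pool left out. Such a mean cannot leave the SD over all 3 pools, so their stability is not shown. POLE4 over POLE2 ran from 2.20 without pool 1 to 4.18 without pool 2. Promoter motifs and protein features were not run, since no such sequences were used here. No paired analysis was possible because the results come from no test and the replicate numbers are shared between kinds of library only. Depth limits the genes below 1 FPKM, with 0 to 37 fragments a pool.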
